A study of Homo sapiens with 21 samples.

Results

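The genes described here are 8 transcription factor genes that set epithelial lineage in the lung, liver and gut, namely NKX2-1, HNF4A, HNF4G, FOXA1, FOXA2, FOXA3, GATA6 and SOX9. They were taken by gene symbol from the 60651 genes of the human count table, and all 8 were found. The samples were xenograft tumors grown from A549-Luc2, a luciferase-marked line of the human lung adenocarcinoma cell line A549, mixed with Matrigel and injected under the skin of the hind flank of female athymic nu/nu mice aged 6 to 8 weeks. Athymic mice lack mature T cells, and all tumors come from 1 cell line. Bulk RNA was sequenced from 21 tumors, 7 from control mice that received the formulation solution by oral gavage, 7 from Oxy186-treated mice and 7 from Oxy210-treated mice. Both compounds are semisynthetic oxysterols and were given once daily at 50 mg/kg. Human-gene counts per tumor ran from 13787493 to 17865119. The study took 4 of the 7 Oxy186 tumors, r1 to r4, forward because they stood apart in a principal component analysis of these same libraries, so a comparison that uses them is not independent of the expression values. The GC slope of a library, which is the change in log2 CPM, that is counts scaled to a fixed library total, for each 10 points of exon GC content across its genes relative to the other libraries, was -0.51 to -0.18 in Oxy186 r1 to r4, 0.079 to 0.49 in Oxy186 r5 to r7, -0.15 to 0.4 in the control tumors and -0.33 to 0.26 in the Oxy210 tumors.

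NKX2-1 is the homeodomain factor that specifies lung and thyroid epithelium and drives the surfactant genes. FOXA1, FOXA2 and FOXA3 are forkhead pioneer factors that open chromatin in endoderm, with FOXA3 most closely tied to liver and gut. HNF4A and HNF4G are nuclear receptors of liver and intestinal epithelium, GATA6 is a zinc finger factor of early endoderm and of the gut and distal lung, and SOX9 marks progenitor cells of lung buds, intestinal crypts and bile ducts. In lung adenocarcinoma, loss of NKX2-1 is known to go with a gastric and liver-like gene program in which HNF4A and the FOXA factors take part.

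The genes lie at the following places on GRCh38. NKX2-1 spans chr14:36516392-36521149 on the minus strand, and FOXA1 spans chr14:37589552-37596059 on the same chromosome and strand. HNF4A spans chr20:44355699-44432845 on the plus strand, and FOXA2 spans chr20:22580998-22585455 on the minus strand. FOXA3 spans chr19:45863989-45873797, GATA6 chr18:22169589-22202528 and SOX9 chr17:72121020-72126416, all on the plus strand. Their exon GC content covered a wide range, with HNF4G lowest at 38.3%, then FOXA1 at 49.2%, SOX9 at 51.1%, HNF4A at 53.1%, GATA6 at 54.9%, FOXA2 at 59.9%, NKX2-1 at 60.0% and FOXA3 at 60.6%.

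Promoter windows from RefSeq (GRCh38.p14), running from 250 bases before to 50 bases after a start site, were at hand for 5 of the 8 genes, namely NKX2-1, HNF4A, FOXA1, FOXA3 and GATA6. HNF4A and NKX2-1 each had 2 windows, and these are shown because the first of these genes is the marker of the gut and liver state and the second that of lung identity. The HNF4A start sites are 45540 bases apart and correspond to its upstream promoter, known from pancreas and gut, and its downstream promoter, known from liver. The upstream window is chr20:44355449-44355748 and the downstream window chr20:44400989-44401288, both on the plus strand. The NKX2-1 windows are chr14:36519507-36519806 and chr14:36520183-36520482 on the minus strand, with start sites 676 bases apart. Each sequence is written 5′ to 3′ along the gene, and capitals mark matches on either strand to 5 short motifs. The HNF4 motif was spelled CAAAGT. The FOXA motif was spelled TGTTTAC, and its variant TGTTTGC was counted as the same motif. The GATA motif was spelled AGATAA, the NKX2 motif of NKX2-1 itself CTCAAG and the SOX motif AACAAT.
HNF4A upstream: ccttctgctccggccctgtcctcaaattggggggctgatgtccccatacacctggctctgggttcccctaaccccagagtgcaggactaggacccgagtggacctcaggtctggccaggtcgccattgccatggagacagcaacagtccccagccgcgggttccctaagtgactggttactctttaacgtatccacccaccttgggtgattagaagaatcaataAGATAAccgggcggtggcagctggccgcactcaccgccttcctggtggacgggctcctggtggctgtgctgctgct
HNF4A downstream: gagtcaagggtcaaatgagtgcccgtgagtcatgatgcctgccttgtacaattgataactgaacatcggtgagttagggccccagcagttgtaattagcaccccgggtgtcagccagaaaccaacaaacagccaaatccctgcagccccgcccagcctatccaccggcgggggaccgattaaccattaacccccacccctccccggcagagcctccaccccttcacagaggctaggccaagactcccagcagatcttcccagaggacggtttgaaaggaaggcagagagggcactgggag
NKX2-1 first: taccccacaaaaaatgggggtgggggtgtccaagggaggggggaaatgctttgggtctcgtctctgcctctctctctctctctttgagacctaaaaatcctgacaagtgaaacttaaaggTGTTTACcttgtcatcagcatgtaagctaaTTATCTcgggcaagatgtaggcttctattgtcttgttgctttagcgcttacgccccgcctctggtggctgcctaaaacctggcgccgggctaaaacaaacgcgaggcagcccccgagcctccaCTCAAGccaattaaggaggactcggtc
NKX2-1 second: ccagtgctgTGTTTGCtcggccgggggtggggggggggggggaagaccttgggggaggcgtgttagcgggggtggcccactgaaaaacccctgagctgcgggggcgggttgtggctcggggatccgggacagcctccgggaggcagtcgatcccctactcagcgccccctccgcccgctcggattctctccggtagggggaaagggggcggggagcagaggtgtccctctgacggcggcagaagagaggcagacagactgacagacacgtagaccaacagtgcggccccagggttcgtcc
The upstream HNF4A window held 1 GATA match, a motif found in 10.3% of the 35116 windows of the table, and the downstream HNF4A window held none of the 5 motifs. The first NKX2-1 window held 1 FOXA, 1 GATA and 1 NKX2 match, present in 7.17%, 10.3% and 12.4% of windows, and the second held 1 FOXA match. In the FOXA1 window 1 FOXA match ran on into 1 HNF4 motif, the latter found in 11.9% of windows, and 1 NKX2 match lay further downstream. The FOXA3 and GATA6 windows held none of the 5 motifs, and no window of these genes held the SOX motif, which 10.1% of windows hold. These matches describe the letters only, and the gene-level counts do not tell the transcripts of one start site from those of another.

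NKX2-1 was at or near 0 in every tumor, while the other 7 factors were measured in all 21. NKX2-1 had 0 counts in 17 of the 21 tumors, 1 count in control r1, Oxy186 r6 and Oxy210 r4, and 2 counts in Oxy186 r3, which makes 5 counts in all. A count of 0 allows up to 3 counts per library, which is 0.168 to 0.218 CPM or at most 0.0687 FPKM, which is CPM of human-gene counts divided by the merged exon length in kilobases, and this limit covers counting error only. Every observed count lay below that floor, so the 3 groups could not be told apart in NKX2-1 at this depth. For the tumors with 1 or 2 counts the limit is higher than for those with 0. The RNAs next to it, NKX2-1-AS1 and SFTA3, had 0 counts in all 21 tumors. SFTA3 overlaps 32.6% of the NKX2-1 exon bases on the same strand and NKX2-1-AS1 overlaps 12.7% on the opposite strand. How reads over shared bases were assigned, and whether strand was used, is not given in the sources used here.

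Lung identity genes, among them targets of NKX2-1, were mostly low in the tumors, but many were not as low as NKX2-1. Of 17 lung identity genes, 2 had a median of at least 1 FPKM in the control tumors. They were ABCA3, a lipid transporter of alveolar type II cells, with a control median of 7.45 FPKM, and AGER, a receptor of alveolar type I cells, with 2.36 FPKM. NAPSA, the aspartic protease used to diagnose lung adenocarcinoma, came next at 0.6 FPKM. The surfactant protein genes SFTPA1, SFTPA2, SFTPB and SFTPC had 7, 5, 17 and 23 counts over all 21 tumors, and HOPX had 0. The other surfactant protein gene of the list, SFTPD, was measured in every tumor, with 1007 counts in all and a control median of 0.498 FPKM. LAMP3, CLDN18 and SFTA2 also had counts in every tumor, 145, 171 and 94 in all. Their control medians were 0.0975, 0.151 and 0.347 FPKM. The labelled line is a lung line, but the markers SFTPA1, SFTPA2, SFTPB, SFTPC and HOPX are at or near 0 in its tumors. Against this, ABCA3, AGER, NAPSA and SFTPD had counts in every tumor.

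The other 7 factors fell into a high and a low tier in the control tumors. SOX9 was highest, with a lowest, median and highest level of 26.5, 27.9 and 40.3 FPKM. FOXA1 followed at 17.4, 26.7 and 34.6 FPKM, and these neighbours did not differ beyond their spread, since SOX9 exceeded FOXA1 in 12 of 21 tumors. FOXA2 was at 6.76, 9.07 and 11.01 FPKM, below FOXA1 in 21 of 21 tumors with no overlap in any group. FOXA3 was at 5.31, 7.73 and 9.60 FPKM, and FOXA2 exceeded it in 20 of 21 tumors although the ranges overlapped. HNF4A was at 4.09, 6.19 and 8.17 FPKM and HNF4G, which spans chr8:75407914-75566834 on the plus strand, at 2.75, 3.998 and 4.95 FPKM. FOXA3 exceeded HNF4A in 11 of 21 tumors and HNF4A exceeded HNF4G in 17 of 21, so neither step stood clear of the spread. GATA6 was at 2.48, 2.76 and 3.37 FPKM and lay below HNF4G in 21 of 21 tumors, with overlapping ranges in the control and Oxy186 groups. FPKM divides by the merged exon length, and for HNF4A this is 10167 bases against 4739 in its longest transcript. Per longest transcript the control median of HNF4A was 13.3 FPKM and that of FOXA1 33.6 FPKM. SOX9 has 3931 bases by either length, so its median stays at 27.9 FPKM, below that of FOXA1. The place of HNF4A and the order of SOX9 and FOXA1 thus depend on the length used. In bulk tumor RNA, fewer cells that express a gene and less RNA of it per cell cannot be told apart.

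**Figure D1:**
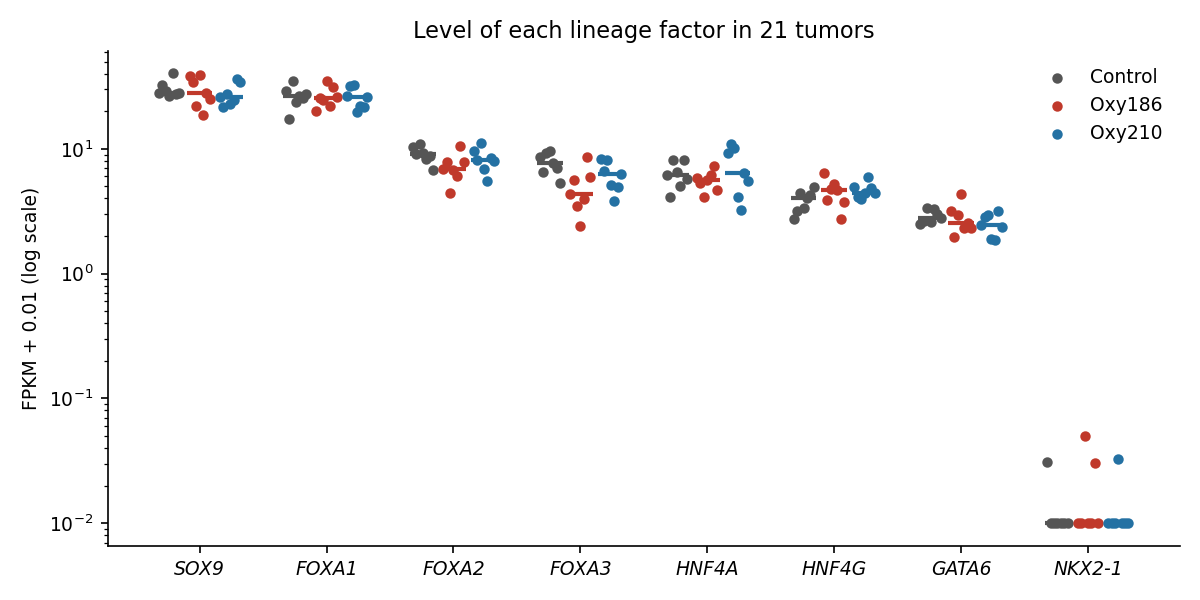
FPKM of each factor with 0.01 added, on a log axis, in 7 control, 7 Oxy186 and 7 Oxy210 tumors, with points for tumors and bars for group medians. SOX9 and FOXA1 share the top, FOXA2, FOXA3, HNF4A, HNF4G and GATA6 follow, and NKX2-1 lies at the added offset in 17 of 21 tumors.

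Gut and liver genes were abundant beside these factors. Of 20 stomach and intestine genes, 14 had a control median of at least 1 FPKM, led by TFF1 at 468 FPKM, MUC5AC at 399 FPKM and TFF3 at 256 FPKM. TFF1 and MUC5AC are among the products of gastric surface cells and TFF3 is among those of intestinal goblet cells. A place on this list does not make a gene exclusive to the gut, and these data do not tell from which lineage its expression stems. Other genes of the list were low, with 14, 16 and 8 counts over all 21 tumors for GKN1, GKN2 and FABP2 and control medians of 0.144 FPKM for CTSE and 0.105 FPKM for MUC6. GKN1 and GKN2 are gastrokines of gastric surface cells, MUC6 is a mucin of gastric glands and FABP2 a fatty acid carrier of enterocytes. Of 20 liver genes, 9 reached 1 FPKM, led by the fibrinogen chains FGA, FGG and FGB at 129, 122 and 91.2 FPKM. Other liver genes were low or at 0, where ALB was at 0.215 FPKM and AFP at 0.288 FPKM in the control tumors and APOA2 and APOB had 0 counts in all 21. Of 25 other lineage factors, 15 reached 1 FPKM, led by the epithelial factors SPDEF at 39.2, ELF3 at 38.4 and EHF at 34.5 FPKM. The intestinal factor CDX2 was at 0.792 FPKM and CDX1 had 0 counts. The summed control level was 884 to 2300 FPKM over the gut list, 270.0 to 617 FPKM over the liver list and 8.74 to 16.3 FPKM over the lung list. The gut and liver sums rest largely on TFF1, MUC5AC and TFF3 and on the fibrinogen chains. The lists differ in size and makeup and were chosen with earlier results of these data known. Their sums thus depend on that choice and do not measure gut or liver against lung identity.

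Mouse reads had been set aside before counting, and most of the listed human genes of stroma, vessels or blood were low. Of 15 such markers, 2 reached a control median of 1 FPKM, LUM at 40.6 FPKM and COL1A1 at 4.03 FPKM. The summed level of the list was 30.8 to 68.4 FPKM in control, 29.4 to 82.3 in Oxy186 and 18.8 to 46.9 in Oxy210 tumors. LUM alone ran from 24.3 to 59.8 FPKM in the control tumors. DCN, ACTA2, PECAM1 and CDH5 had counts in every tumor, 633, 544, 712 and 240 in all. COL1A2, VWF, CD3E and MS4A1 had between 4 and 5 counts each over all tumors.

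**Figure D2:**
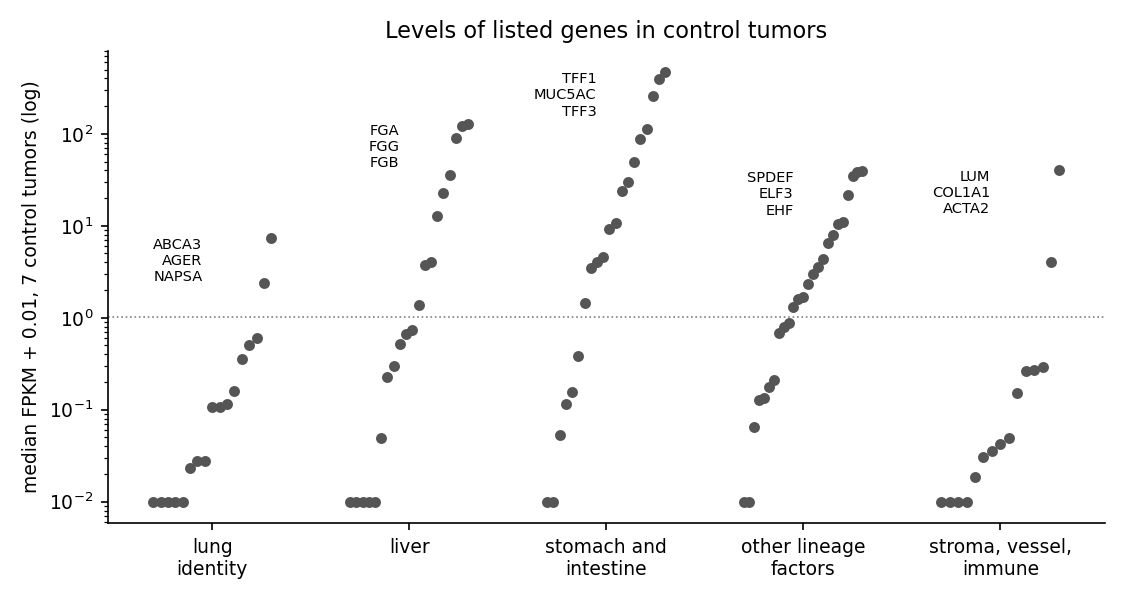
Median FPKM over the 7 control tumors with 0.01 added, on a log axis, for each gene of 5 lists, with the 3 highest genes of each list named and a dotted line at 1 FPKM. Of the lung list 2 of 17 genes lie above the line, of the liver list 9 of 20 and of the gut list 14 of 20.

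Whether the oxysterols moved these factors was first asked over all 7 Oxy186 tumors. None of the 7 factors that passed the low-count filter passed the test. NKX2-1 did not pass it. FOXA3 was lowest relative to control, at 4.85 CPM in Oxy186 r4, a median of 8.39 and 19.0 in r6, against 10.99, 16.1 and 23.2 in the control tumors, where CPM is scaled by the trimmed mean of M values (TMM). The groups overlapped, and 4 of 7 Oxy186 tumors lay below the lowest control. The log2 fold change was -0.69 (SE 0.249, 95% interval -1.22 to -0.17), with an adjusted p = 0.862 in edgeR's quasi-likelihood test over 16291 genes. FOXA2 ran from 13.4 to 30.1 CPM with a median of 17.8, against 17.9 to 30.7 with a median of 23.99 in control, and its log2 fold change was -0.36 (95% interval -0.73 to 0.00445, adjusted p = 0.862). With the GC trend of each library as an offset, FOXA3 was at -0.36 (95% interval -0.70 to -0.02, adjusted p = 0.844) and FOXA2 at -0.00403 (95% interval -0.28 to 0.27, adjusted p = 0.999). Over these genes 0.0% passed a fold of 2 with an adjusted p of 0.05 or less, the limits for a call, and edgeR gave 618 genes (3.79%) and 1 of 7 members, FOXA3, an unadjusted p under 0.05. limma voom and DESeq2 also called 0 members and 0 genes.

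The other 5 factors lay closer to control in the Oxy186 tumors. HNF4A ran from 46.6 to 77.0 CPM with a median of 54.8, against 40.5 to 83.7 with a median of 69.2 in control. HNF4G ran from 13.7 to 27.9 CPM with a median of 21.6, against 14.5 to 23.1 with a median of 18.8. FOXA1 had medians of 118.3 and 118.2 CPM in Oxy186 and control tumors. GATA6 had medians of 10.1 and 11.1 CPM, and SOX9 of 115.1 and 118.3 CPM. All ranges overlapped, and the log2 fold changes lay between -0.21 for HNF4A and 0.19 for HNF4G, with adjusted p values of 0.862 to 0.974 in edgeR's quasi-likelihood test.

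**Figure D3:**
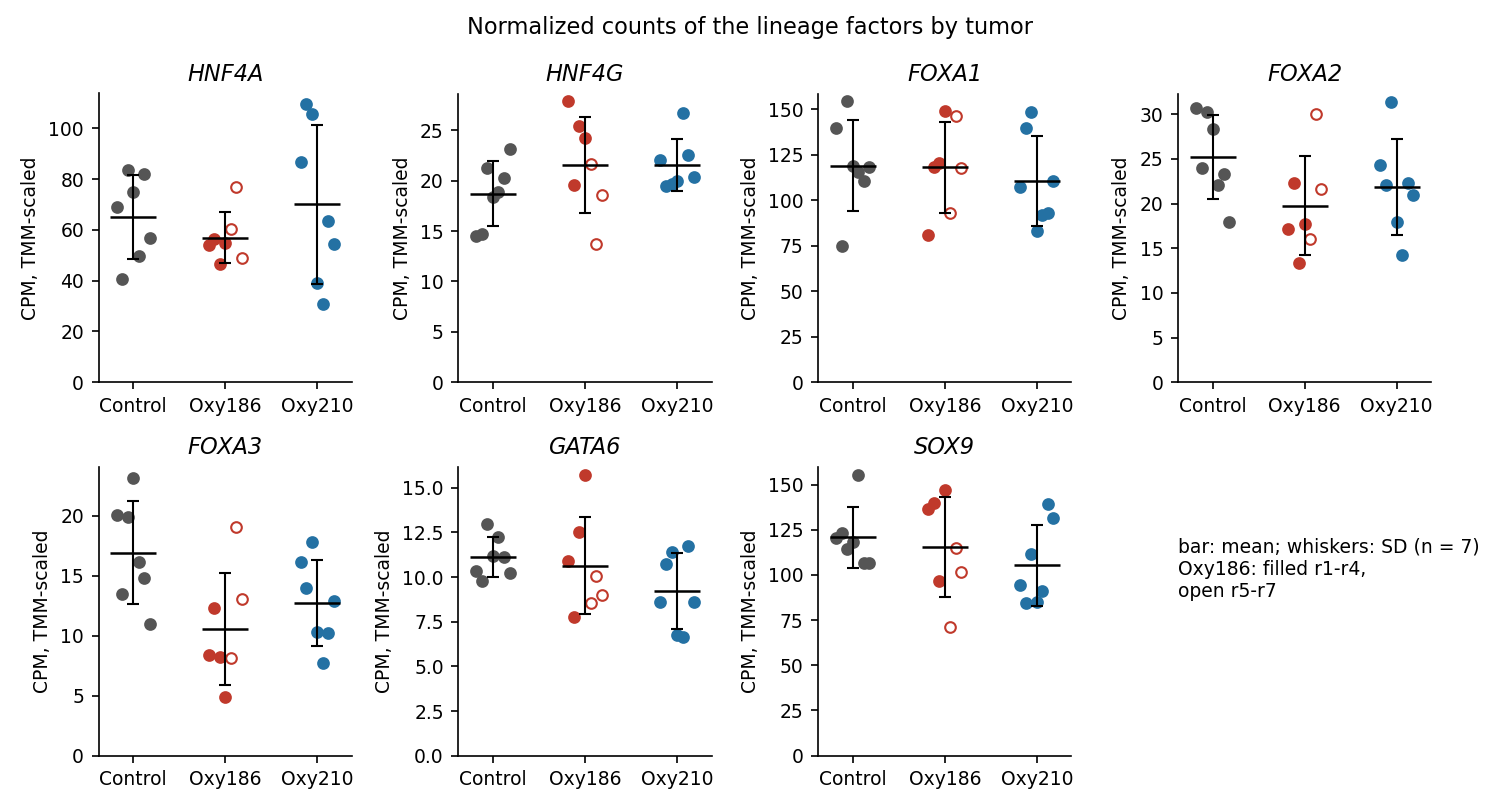
TMM-scaled CPM of the 7 measured factors in each tumor, with horizontal bars for the mean and whiskers for the SD of 7 tumors per group. Among Oxy186 tumors the filled points are r1 to r4 and the open points r5 to r7, and FOXA3 in r1 to r4 lies between 4.85 and 12.3 CPM.

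None of the 7 measured factors passed the test in the Oxy210 tumors either. FOXA3 was again the lowest relative to control, running from 7.70 to 17.8 CPM with a median of 12.9, and 3 of 7 tumors lay below the lowest control. Its log2 fold change was -0.39 (SE 0.181, 95% interval -0.77 to -0.01), with an adjusted p = 0.345 in edgeR's quasi-likelihood test over 16396 genes, and -0.20 with GC offsets (adjusted p = 0.429). HNF4A spread most among the Oxy210 tumors, with 86.7, 109.8 and 105.5 CPM in r1 to r3, 39.3 and 31.0 in r4 and r5, and 63.5 and 54.3 in r6 and r7. Thus 3 tumors lay above the highest control and 2 below the lowest, around a log2 fold change of 0.12 (95% interval -0.39 to 0.62, adjusted p = 0.836). GATA6 ran from 6.63 to 11.7 CPM with a median of 8.60, and 4 of 7 tumors lay below the lowest control, with a log2 fold change of -0.25 (adjusted p = 0.417). HNF4G, FOXA1, FOXA2 and SOX9 had log2 fold changes of 0.23, -0.09, -0.19 and -0.18, with adjusted p values of 0.421, 0.793, 0.548 and 0.517. Of all genes 0.0% were called, while edgeR gave 2270 genes (13.8%) and 1 of 7 members, FOXA3, an unadjusted p under 0.05. limma voom called 0 genes and DESeq2 called 22, none of them a member. Both compounds were set against the same 7 control tumors.

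Between the compounds at their matched dose of 50 mg/kg, the 7 factors gave 7 comparisons in a fit over 16361 genes, and none passed. The log2 differences, Oxy186 minus Oxy210, were -0.30 for HNF4A (95% interval -0.80 to 0.20), -0.27 for FOXA3 (-0.81 to 0.27), -0.15 for FOXA2 (-0.54 to 0.24), -0.01 for HNF4G (-0.33 to 0.31), 0.08 for FOXA1 (-0.25 to 0.41), 0.12 for SOX9 (-0.23 to 0.48) and 0.20 for GATA6 (-0.19 to 0.59). All had an adjusted p of 1.0 in edgeR's quasi-likelihood test, with 0.0% of all genes called (0.00611% higher with GC offsets) and 664 (4.06%) at an unadjusted p under 0.05. No member was under 0.05 unadjusted, and limma voom and DESeq2 called no member. The intervals of HNF4A and FOXA3 reach the furthest from 0, and a test that was not passed does not show that the compounds act alike.

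In the 4 Oxy186 tumors the study took forward, FOXA3 was the 1 member called. It was at 8.39, 12.3, 8.21 and 4.85 CPM in r1 to r4, against 10.99 to 23.2 in the control tumors, so 3 of the 4 lay below every control and r2 lay within the control range. The log2 fold change was -1.01 (SE 0.25, 95% interval -1.54 to -0.48, adjusted p = 0.0115 in edgeR's quasi-likelihood test), a level 2.01 times lower. Among all 16852 genes tested 8.13% were called lower and 0.214% higher, and edgeR gave 34.7% an unadjusted p under 0.05, so a single member lower is not far from the share among all genes. At the adjusted p alone FOXA3 was still the 1 member, where 15.0% of genes were lower and 4.73% higher. The value sits at the fold limit of 2. The adjusted p stayed at or under 0.05 but the fold came under 2 with DESeq2, with DESeq2-type size factors and with library size alone, each at -0.98. The same was so in turn without control r1, r3 or r4 (-0.97, -0.97 and -0.92) and without Oxy186 r3 or r4 (-0.99 and -0.77). When the GC trend of each library was used as an offset, the log2 fold change of FOXA3 was -0.24 (95% interval -0.61 to 0.13, adjusted p = 0.502), and no member was called, with 0.854% of genes called lower and 0.344% higher. The group and the GC slope cannot be told apart here, since the slopes of r1 to r4 lie wholly below those of the control tumors.

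FOXA2 missed the threshold in r1 to r4 and changed sign with the GC trend. It was at 17.2, 22.4, 13.4 and 17.8 CPM against 17.9 to 30.7 in control, with a log2 fold change of -0.52 (95% interval -0.90 to -0.14, adjusted p = 0.0518 in edgeR's quasi-likelihood test), and of 0.21 (95% interval -0.02 to 0.44, adjusted p = 0.322) with GC offsets. The adjusted p of FOXA2 was 0.0367 with DESeq2, 0.0285 in edgeR without Oxy186 r2 and 0.0214 in edgeR without control r7, each at a fold under 2. HNF4G, which has the lowest exon GC content of the set, was at 27.9, 19.5, 25.4 and 24.2 CPM against 14.5 to 23.1. Its log2 fold change was 0.37 (adjusted p = 0.107), and 0.11 (adjusted p = 0.718) with GC offsets. HNF4A was at 54.0, 56.4, 46.6 and 54.8 CPM, all within the control range, with a log2 fold change of -0.30 (adjusted p = 0.249).

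FOXA1, GATA6 and SOX9 had log2 fold changes of -0.03, 0.07 and 0.10 in r1 to r4, with adjusted p values of 0.938, 0.808 and 0.64. With GC offsets the value of GATA6 was 0.41 (95% interval 0.00 to 0.82, adjusted p = 0.262 in edgeR's quasi-likelihood test). GATA6 shares 8.4% of its exon bases with an unnamed gene and 2.5% with GATA6-AS1, both on the opposite strand. GATA6-AS1, LINC00261, a noncoding RNA beside FOXA2, and SOX9-AS1 passed the filter, and none of the 3 was called in any of the 4 comparisons, with or without GC offsets.

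**Figure D4:**
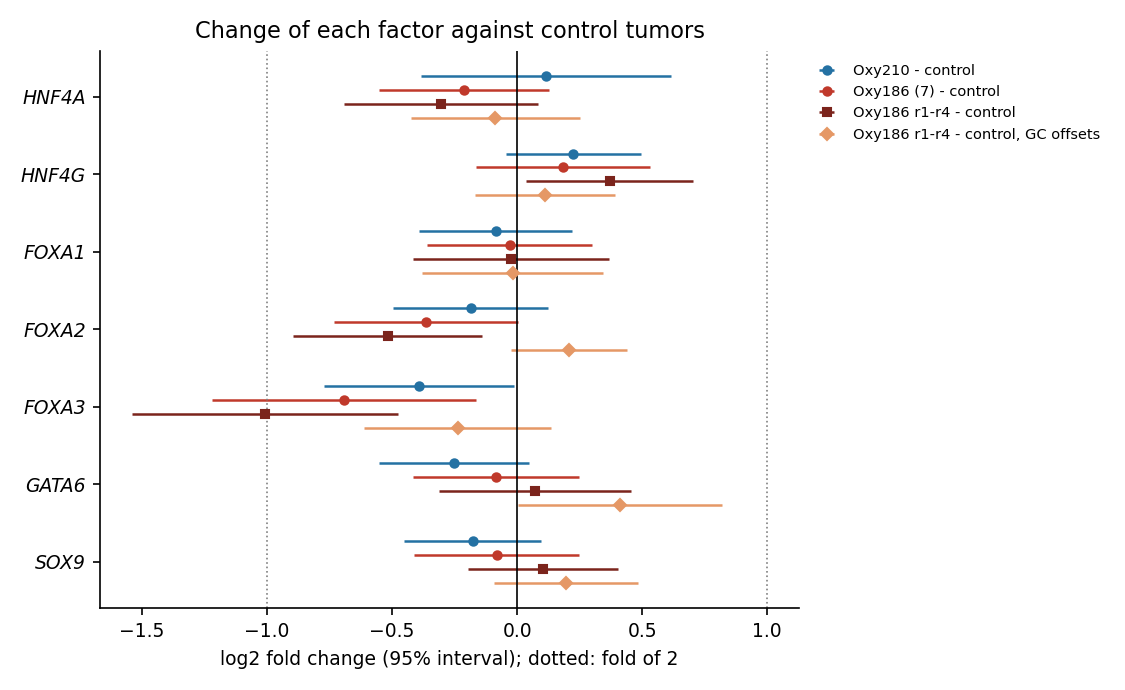
log2 fold change of each measured factor against the 7 control tumors with its 95% interval, for 7 Oxy210 tumors, 7 Oxy186 tumors and Oxy186 r1 to r4, the last also with GC offsets. FOXA3 in r1 to r4 moves from -1.01 to -0.24 and FOXA2 from -0.52 to 0.21 when GC offsets are used.

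The level of some members followed the GC slope of the library across all 21 tumors. FOXA3 had a Pearson r of 0.852 and a Spearman rho of 0.871 with the slope (permutation test, adjusted p = 3.5e-05 and 7e-05 over 7 relations), and r was 0.831, 0.811 and 0.962 within the control, Oxy186 and Oxy210 groups. FOXA2 had an r of 0.848 and a rho of 0.817 (adjusted p = 3.5e-05 and 0.000105), with 0.95, 0.776 and 0.917 within groups. HNF4G ran the other way, with an r of -0.781 and a rho of -0.757 (adjusted p = 0.00014 and 0.000233), and -0.547, -0.879 and -0.701 within groups. HNF4A had an r of 0.565 and a rho of 0.574 (adjusted p = 0.0134 and 0.0129), with 0.369, 0.701 and 0.92 within groups. Leaving out the 2 libraries with the most extreme slopes gave 0.807 for FOXA3, 0.82 for FOXA2, -0.761 for HNF4G and 0.576 for HNF4A. FOXA1, GATA6 and SOX9 had r values of 0.355, -0.0159 and -0.0919 and rho values of 0.369, 0.0286 and -0.103. In the permutation test the adjusted p values for r were 0.16, 0.948 and 0.806 and for rho 0.141, 0.904 and 0.768. Without the same 2 libraries r was 0.675, 0.438 and -0.0464. Within the control, Oxy186 and Oxy210 groups r was 0.477, 0.124 and 0.802 for FOXA1 and 0.281, -0.582 and 0.63 for GATA6. For SOX9 it was 0.197, -0.333 and -0.0474. The slope is computed from the same libraries as the levels, across genes ordered by exon GC content. Genes of high or low GC content therefore tend to follow it by construction. The p values do not show that the members follow it more than other genes of like GC content, which was not tested.

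**Figure D5:**
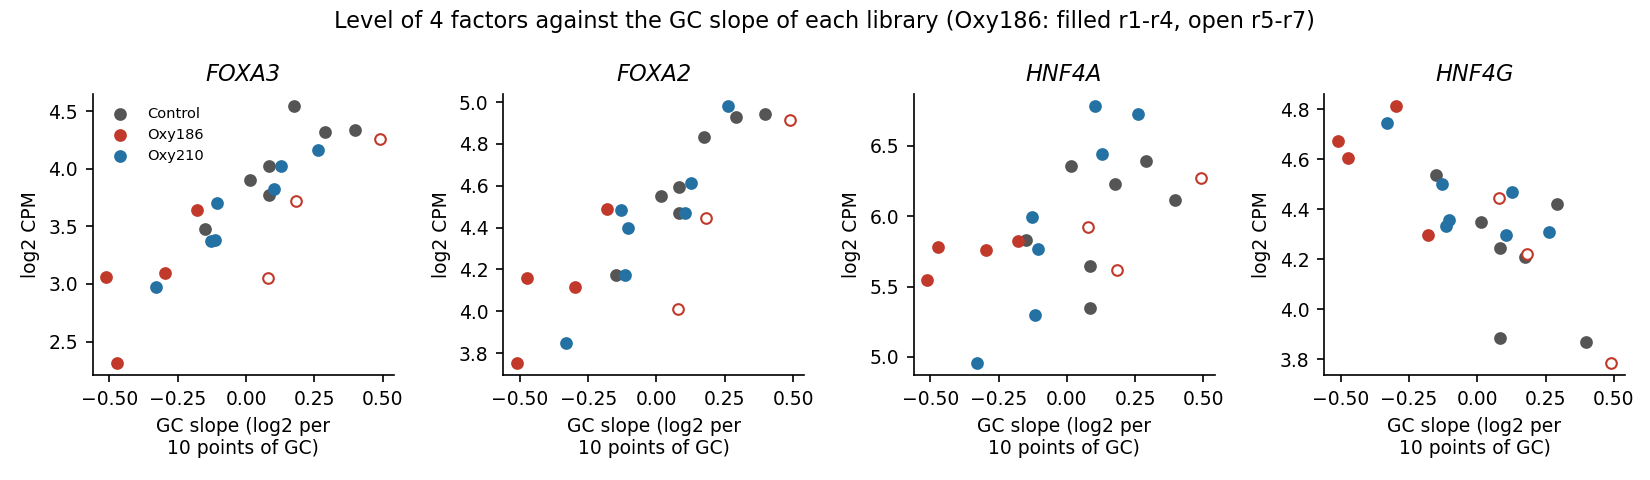
log2 CPM of FOXA3, FOXA2, HNF4A and HNF4G in each of 21 tumors against the GC slope of its library in log2 CPM per 10 points of GC, with Oxy186 r1 to r4 filled and r5 to r7 open. FOXA3 and FOXA2 rise with the slope (r of 0.852 and 0.848) and HNF4G falls (r of -0.781).

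The members also varied with one another, and 6 of their 21 pairs passed an adjusted p of 0.05 for both r and rho. The share over all gene pairs was not computed, so this count is not a trait of the members. FOXA2 and FOXA3 were closest, with an r of 0.863 and a rho of 0.896 (permutation test, adjusted p = 0.00021 for each), and r was 0.896, 0.772 and 0.911 within the control, Oxy186 and Oxy210 groups. After each library's GC trend was removed their r was 0.38. HNF4A varied with FOXA1 at an r of 0.621 and a rho of 0.555 (adjusted p = 0.0114 and 0.0351), and this pair kept an r of 0.525 after removal of the GC trend, although within groups r was 0.756, 0.259 and 0.845. HNF4A had an r of 0.666 with FOXA2 and 0.561 with FOXA3, which were 0.22 and 0.237 after removal. HNF4G had an r of -0.711 with FOXA2 and -0.678 with FOXA3, which were -0.03 and -0.108 after removal. Among pairs that did not pass, some rose after removal. The r of FOXA2 went from 0.301 to 0.709 with SOX9 and from 0.23 to 0.535 with GATA6. That of FOXA1 with GATA6 fell from 0.514 to 0.208. HNF4A and HNF4G, paralogs with closely related binding sites, gave an r of -0.235 and a rho of -0.221 (adjusted p = 0.463 and 0.52). Their r was 0.398 after removal of the GC trend, the opposite sign, and 0.39, -0.708 and -0.62 within the control, Oxy186 and Oxy210 groups.

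The makeup of the FOXA family is given as a description, chosen after its values were seen. FOXA3 made up 13.4 to 22.5% of the summed FOXA FPKM in control tumors (mean 17.98% ± 2.8, SD, n = 7), 5.37 to 16.9% in Oxy186 tumors (12.6% ± 3.74) and 12.2 to 18.6% in Oxy210 tumors (15.21% ± 2.0). FOXA1 made up the larger part, with a median of 61.7% in control, 65.6% in Oxy186 and 62.8% in Oxy210 tumors. After removal of the GC trend the mean FOXA3 share was 16.6% in control, 13.6% in Oxy186 and 15.3% in Oxy210 tumors. The log2 ratio of HNF4A to HNF4G FPKM had a median of 0.89 in control, 0.32 in Oxy186 and 0.41 in Oxy210 tumors, and it ran from -0.87 to 1.41 among the latter.

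Stomach, intestine and liver genes were tested in the same fits. No stomach and intestine gene of the 16 tested was called in any of the 4 comparisons, and their median log2 fold change in r1 to r4 was 0.02, against 0.01 over all genes. In Oxy210 against control tumors that median was -0.46, with 13 of 16 below 0, 5 of 16 at an unadjusted p under 0.05, where 13.8% of all genes were, and a median over all genes of 0.01. Of 13 liver genes tested, 1 was called higher in r1 to r4, where 0.214% of all genes were. It was SERPINA1, the secreted antitrypsin of liver, with medians of 552 CPM in r1 to r4 and 173 CPM in control, a log2 fold change of 1.39 (SE 0.32) and an adjusted p = 0.00776 in edgeR's quasi-likelihood test. With GC offsets SERPINA1 was at 1.69 (adjusted p = 0.00977) and RBP4, the retinol carrier of plasma, also rose, at 1.42 (adjusted p = 0.0156), against 0.93 (adjusted p = 0.0519) without them. The fibrinogen genes FGB and FGG had log2 fold changes of 0.78 and 0.72 (adjusted p = 0.0193 and 0.0324), under the fold limit, and 0.54 and 0.45 with GC offsets (adjusted p = 0.147 and 0.238). The median over the 13 liver genes in r1 to r4 was 0.72, against 0.01 over all genes, and 0.51 with GC offsets. Of the 13, 7 were at an unadjusted p under 0.05 in edgeR, where 34.7% of all genes were, and 5 with GC offsets. The study chose r1 to r4 on these same expression values, and the list was chosen with earlier results of these data known. These counts are thus not independent support for a change of the liver genes as a set. Over all 7 Oxy186 tumors the liver median was 0.44, against -0.0067 over all genes, and 0.34 with GC offsets. There 1 of 13 was below 0, and 3 of 13 had an unadjusted p under 0.05 in edgeR, as had 3.79% of all genes. In the Oxy210 tumors the liver median was 0.32, against 0.01 over all genes, and 0.24 with GC offsets. There 2 of 13 were below 0, and 4 of 13 had an unadjusted p under 0.05 in edgeR, as had 13.8% of all genes. The shares of all genes below 0 were not computed. SERPINA1 was at 1.07 in Oxy186 and 1.09 in Oxy210 tumors (adjusted p = 0.862 and 0.291 in edgeR's quasi-likelihood test), and no liver gene was called in either.

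Of 22 other lineage factors tested, 3 were called lower in r1 to r4 and none higher, where 8.13% of all genes were called lower, so the count is not far from the general share. They were CEBPA, a liver and lung leucine zipper factor, at -2.27 (adjusted p = 0.00114 in edgeR's quasi-likelihood test), SPDEF, a goblet cell factor, at -1.72 (adjusted p = 0.00254), and SOX17, an endoderm factor, at -1.21 (adjusted p = 0.026). With GC offsets these were -0.92, -0.54 and -0.60 (adjusted p = 0.0451, 0.117 and 0.296) and none passed the fold limit. The call of SOX17 was also lost in edgeR without Oxy186 r1 (-0.93, adjusted p = 0.0547) or r3 (-1.14, adjusted p = 0.0812). Of the 4 lung genes tested none was called in any comparison, and ABCA3 was at -0.75 in r1 to r4 (adjusted p = 0.0491), and at -0.02 with GC offsets (adjusted p = 0.968). Of the stroma, vessel and blood markers 6 were tested in r1 to r4 and none was called, with 2 at an unadjusted p under 0.05, as 34.7% of all genes were.

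The genes whose log2 CPM ran most closely with each factor over the 21 tumors, among 16989 others, are given without a test, since all values share the libraries and their GC slopes. HNF4A was closest to MUC3A, a membrane mucin of the intestine, at an r of 0.922, which was 0.888 after removal of the GC trend, and then to SMTN and OLFM2 at 0.899 and 0.892. HNF4G was closest to MPP6, DNAH14 and ZNF518A at 0.915, 0.898 and 0.892, all of them low in exon GC content at 36.9, 38.5 and 37.6%. FOXA1 was closest to PRKCD, MACROH2A1 and MYORG at 0.852, 0.836 and 0.833. FOXA2 was closest to LIMK1, AP1M1 and CNOT3 at 0.952, 0.947 and 0.944, of which AP1M1 came to 0.0213 after removal of the GC trend. FOXA3 was closest to NRSN2, ANKRD54 and PI4K2A at 0.95, 0.945 and 0.936. GATA6 was closest to CXCL16, a chemokine, at 0.797, and to RAC1 and INPP5A at 0.771 and 0.756, and SOX9 to DPYSL2, MBTPS1 and GOLPH3 at 0.848, 0.835 and 0.833.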

How the data were processed

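RNA of 21 xenograft tumors was sequenced from NEBNext Ultra II libraries. The authors trimmed reads with Trimmomatic 0.39, aligned them with STAR 2.7.6a to a joined human and mouse genome (GRCh38.p13 and GRCm39) and made the deposited raw counts with featureCounts of Subread 2.0.1 from reads unique to human genes. The deposited log2 CPM values of the control and Oxy186 r1 to r4 tumors were made by the authors with edgeR's filter and TMM, and recomputing them gave the same values to within 4.97e-14. They were otherwise not used.

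Raw counts were filtered with filterByExpr, TMM-normalized and fitted with edgeR 4.0.16 in R 4.3.3, once per comparison on its own tumors. Calls needed a fold over 2 and a p value of 0.05 or less after Benjamini-Hochberg adjustment across the genes of that fit. limma 3.58.1 and DESeq2 1.42.0 were alternatives. FPKM used merged exons of GENCODE release 44, whereas the study counted on release 37. GC offsets were natural splines with 4 degrees of freedom of log2 CPM on exon GC content, for each library. Correlation p values came from 100000 permutations. The edgeR step was run on simulated counts for Oxy186 and for r1 to r4 against control, with log2 changes of 1.5 and 2. It recovered 84.5 to 100.0% of the changed genes. No GC slope and no smaller changes were simulated, so this does not bear on the FOXA3 call in r1 to r4. Counts per tumor were 13787493 to 17865119, and p values measure the spread between tumors, 1 per mouse as far as the labels tell.

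Named genes were the 8 members, the 3 highest genes of each list in control tumors, listed genes called in any comparison, filtered noncoding neighbours, and for each member the 3 genes of highest Pearson r. Other genes, such as those at or near 0, were chosen after their values were seen. The members and the lists were chosen with earlier results of these data known.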

Additional observations from a re-analysis of the deposited data

Results flagged for a closer look

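SOX9 in control r5 had a log2 CPM of 7.28, while the other 6 control tumors lay between 6.74 and 6.95. The gap of this tumor to the next was 0.61 of the range of the group, over the 95% limit of Dixon's test for 7 values. This was 1 of 21 groups of a member and a treatment tested, and chance alone flags about 1.05. The log2 fold change of SOX9 in Oxy210 against control tumors had its value nearest 0, -0.10, when this tumor was left out.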

How the results depend on the processing

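Of the 7 members tested, 0 were called in Oxy186 against control, Oxy210 against control and Oxy186 against Oxy210 under every alternative run. In r1 to r4 against control the 1 member called, FOXA3, was 0 under DESeq2, DESeq2-type normalization, library size alone, GC offsets, the replicate block with GC offsets and 1 fit of all 21 tumors, and 0 to 1 when single tumors were left out (0 without control r1, r3 or r4 or Oxy186 r3 or r4). Its log2 fold change ran from -1.25 to -0.77 over those omissions. Genes called in r1 to r4 against control were 1406, and 202 with GC offsets, 62 with the replicate block and GC offsets and 3323 at the adjusted p alone. In Oxy210 against control they were 0, and 22 with DESeq2, 7 with no filter and 1 with the replicate block. In Oxy186 against Oxy210 they were 0, and 1 with no filter, with all 21 tumors, with GC offsets and with the block and GC offsets. The cause was not tested.

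Signs turned for values near 0. FOXA1 with library size alone was at 0.0041 in Oxy186 and 0.00222 in r1 to r4, and leaving out tumors gave -0.0919 to 0.0627 and -0.113 to 0.118. GATA6 in Oxy186 was at 0.122 with GC offsets and 0.0498 with the block and GC offsets, and -0.0576 to 0.227 in r1 to r4 with tumors left out. FOXA2 with GC offsets was at 0.00167 in Oxy210 and 0.209 in r1 to r4, there 0.167 with the block too. HNF4G in Oxy186 against Oxy210 was at 0.0139 with no filter and 0.00188 with all 21 tumors, and -0.114 to 0.0749 with tumors left out. In Oxy210 HNF4A ran from -0.0321 to 0.233, the HNF4A to HNF4G log2 ratio from -0.36 to 0.02, and in Oxy186 SOX9 from -0.138 to 0.0311.

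The sample titles number the tumors within each group and do not say whether tumors of the same number are paired. Correlations of deviations from group means between same-numbered tumors ran from -0.398 to 0.0451 for Oxy186 and control. They ran from -0.398 to 0.329 for Oxy210 and control and from -0.322 to 0.114 for Oxy186 and Oxy210. These correlations do not settle whether tumors were paired. With the replicate block 1635 genes were called in r1 to r4 and FOXA3 had an adjusted p = 0.0251 in edgeR. Per longest transcript the levels were 13.3 FPKM for HNF4A and 33.6 FPKM for FOXA1. Of the 3 genes most like each member, the GC-removed ranking held 1 for HNF4A, HNF4G, FOXA3, GATA6 and SOX9 and 0 for FOXA1 and FOXA2. Spearman's rho held 1 for HNF4A and FOXA3 and 0 for HNF4G, FOXA1, FOXA2 and SOX9. Depth limits NKX2-1, whose counts lay under the floor of 3 in every tumor. The unknown assignment of reads over bases shared with SFTA3 and NKX2-1-AS1 is a further limit.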
